A study of Homo sapiens with 3 samples.

Results

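Hairpin 1 (sh1) is 1 of 2 short hairpin RNAs (shRNAs) aimed at the transcript TCONS_02256997, and its effect was read as the difference between the sh1 sample and the scrambled control sample. The comparison took the 3 gene tables of each of these samples, that is 2 of the 3 samples and 6 of the 9 tables of the series, with every gene of the tables in it. The cells were KYSE510, an established human line of esophageal squamous cell carcinoma, grown in RPMI-1640 with 10% FBS and penicillin-streptomycin. Lentivirus carried a scrambled shRNA (control), shRNA#1 (sh1) or shRNA#2 (sh2) into the cells for 24 h, and all 3 samples then stood under 4 µM puromycin for 48 h. Virus and puromycin were thus common to control and hairpin. The sh2 sample serves below as a reference only.

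A short hairpin RNA is made by the infected cell, cut by Dicer into a small duplex and loaded into an Argonaute protein, which pairs with transcripts that match the guide strand and lowers them. Such a guide can also pair through its seed with transcripts it was not aimed at, which is why such a design carries a scrambled control and a second hairpin. Esophageal squamous cells renew from a basal layer marked by TP63 and KRT5. Cells that leave this layer change their keratins and express some genes of the cornified envelope. TCONS_02256997 was not analysed here, so these data hold no check of its level with sh1. The hairpin sequences were not used here either.

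Total expected counts ranged over 15012961 to 15414591 in the control libraries and over 14660821 to 14770512 in those of sh1, while sh2 libraries had 15759270 to 16092417. Whether the 3 numbered tables of a sample come from different cultures, from different libraries of 1 culture or from repeat sequencing is not stated in the labels. They were treated as 3 libraries, so every SD, SE and p-value measures only the spread between these tables, which may be technical. The squamous markers were present in control, with TP63 at 518 ± 10.4 and KRT5 at 1496 ± 11.3 CPM (counts after scaling for library size, mean ± SD, n = 3 libraries), while LGALS7 was at 0. Of the 10 leukocyte markers 4 had enough counts to be tested, and 3 of these were higher with sh1 at an adjusted p below 0.05 (edgeR). Those 3 were PTPRC with 65 counts over the control libraries and 98 with sh1, CSF1R with 16 and 60 and LYZ with 258 and 326, and MS4A1 had 0 in both groups. The call of LYZ was lost without sh1 library 3 (log2 change 0.30), and that of PTPRC without control library 2 (0.55), sh1 library 1 (0.60) or sh1 library 2 (0.56). Among the fibroblast markers COL1A1 had 2260 and 2452 counts and FAP 341 and 255, while THY1 had 0 in both groups. The call of COL1A1 as higher was lost without sh1 library 1 (log2 change 0.11). That of FAP as lower was lost without control library 3 (-0.31) or sh1 library 2 (-0.29). Of 4 tested endothelial markers 1 was higher with sh1 and 1 lower at an adjusted p below 0.05 (edgeR). The cadherin CDH5 had 360 counts in control and 582 with sh1, VWF 170 and 104 and PECAM1 105 and 102. The summed level of the 10 leukocyte markers was 13.4 to 14.7 TPM in the control libraries and 17.9 to 19.6 with sh1. The fibroblast list, 9 genes, was at 26.6 to 28.8 and 25.8 to 29.9 TPM and the endothelial list, 7 genes, at 7.51 to 9.23 and 10.7 to 12.3 TPM (a transcript level per length, scaled to a common total). Their part in the results was not tested.

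Of 19266 genes, 13580 had enough counts to be tested. With sh1, 4714 were called higher (34.7%) and 4695 lower (34.6%), together 9409 or 69.3%, where called means an adjusted p below 0.05 in the quasi-likelihood F-test of edgeR, Benjamini-Hochberg adjusted. Most of these changes were small. The median log2 fold change over all tested genes was 0.0141, the quartiles were -0.32 and 0.31, and the median size was 0.315. Calls of at least 2-fold numbered 1242 (9.15%), of which 534 were higher (3.93%) and 708 lower (5.21%). At 4-fold or more there were 80 higher and 99 lower, and at 16-fold or more 6 and 9. For 2858 genes the 95% interval of the change lay within 1.2-fold either way. Since so many genes were called, a list is read below against these shares, and a count near them is not a result about the list. Counts from 1 bulk sample cannot tell fewer cells of a type from less RNA per cell.

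**Figure D1:**
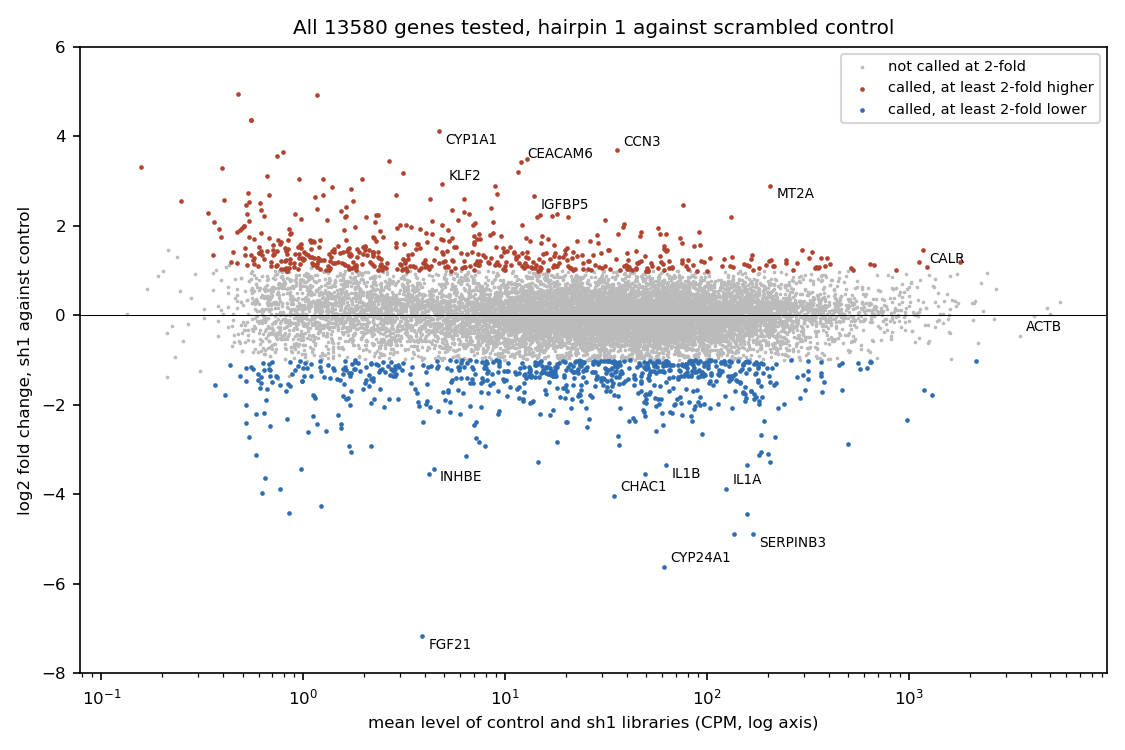
Each point is 1 of the 13580 tested genes, with its mean level over the control and sh1 libraries on the x axis (CPM, log axis) and its log2 fold change, sh1 against control, on the y axis. Red points are the 534 genes called at least 2-fold higher, blue points the 708 called at least 2-fold lower, and grey points all others. Named points include CYP1A1 at 4.12 and CYP24A1 at -5.61, and unnamed points further out on the upper left are genes below 5 CPM.

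Genes of this and the next paragraph were selected as called, at 5 CPM or more in the higher group and without library overlap. Among such genes the rise of greatest size was that of CYP1A1 (Entrez 1543), a cytochrome P450 that oxidises polycyclic compounds. Its level was 0.325, 0.466 and 0.725 CPM in the control libraries and 9.1, 8.26 and 9.3 CPM with sh1. The log2 change was 4.12 ± 0.22 (SE). The SE of a log2 change was derived from the F statistic, and for the largest changes it is too small. CCN3 (Entrez 4856), a matricellular protein of the CCN family, went from 5.13 ± 0.567 to 66.5 ± 2.32 CPM (SD, n = 3), a log2 change of 3.69 ± 0.076. S100A7 (Entrez 6278), psoriasin, a calcium-binding protein of inflamed epithelium, went from 2.08 ± 0.354 to 23.5 ± 2.56 CPM, a log2 change of 3.49 ± 0.13. The carcinoembryonic adhesion molecules CEACAM6 and CEACAM5 had log2 changes of 3.43 ± 0.11 and 3.21 ± 0.13. SNPH, which anchors mitochondria to microtubules in axons, rose by 3.17 ± 0.23 on the log2 scale and KLF2, a zinc finger factor best known from endothelium and lymphocytes, by 2.94 ± 0.18. TAGLN, an actin-binding protein of smooth muscle, rose by 2.89 ± 0.13, SEMA7A, a membrane-anchored semaphorin, by 2.71 ± 0.14, IGFBP5, which binds insulin-like growth factors, by 2.66 ± 0.11 and VTCN1, an inhibitory ligand of T cells, by 2.61 ± 0.15 on the log2 scale. MT2A, a metallothionein, completes the 12 rises with 2.89 ± 0.059.

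The fall of greatest fitted size was FGF21 (Entrez 26291), a hormone of nutrient stress, with 351 counts over the control libraries and 2 with sh1. With totals taken into account the control level was 170.0 times that with sh1 (95% exact Clopper-Pearson interval 46.7 to 1410.0, counting error only). CYP24A1 (Entrez 1591), the enzyme that inactivates vitamin D, was at 118, 121 and 121 CPM in the control libraries and 2.58, 2.44 and 2.31 CPM with sh1, a log2 change of -5.61 ± 0.072. SERPINB3 (Entrez 6317) and SERPINB4 (Entrez 6318), squamous cell carcinoma antigens, had log2 changes of -4.89 ± 0.048 and -4.44 ± 0.051. They are near-identical neighbours, and the split of reads between them is uncertain. IL1B (Entrez 3553), the secreted interleukin 1, went from 113 ± 3.76 to 11.1 ± 0.961 CPM. EREG (Entrez 2069), an EGF receptor ligand, went from 90.5 ± 2.09 to 7.78 ± 0.833 CPM. INHBE, an inhibin beta chain, changed by -3.43 ± 0.2 and GPR15LG, an epithelial chemoattractant, by -3.55 ± 0.21 on the log2 scale. CCN2, CHAC1, IL1A and TCIM complete the 12 falls of greatest size, with log2 changes of -4.89 ± 0.056, -4.03 ± 0.073, -3.87 ± 0.052 and -3.34 ± 0.041. The largest adjusted p among the 12 rises and 12 falls was 2.05e-13 for SNPH (quasi-likelihood F-test of edgeR, Benjamini-Hochberg adjusted). Both sets were chosen for large called changes without overlap, so this value adds no support.

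**Figure D2:**
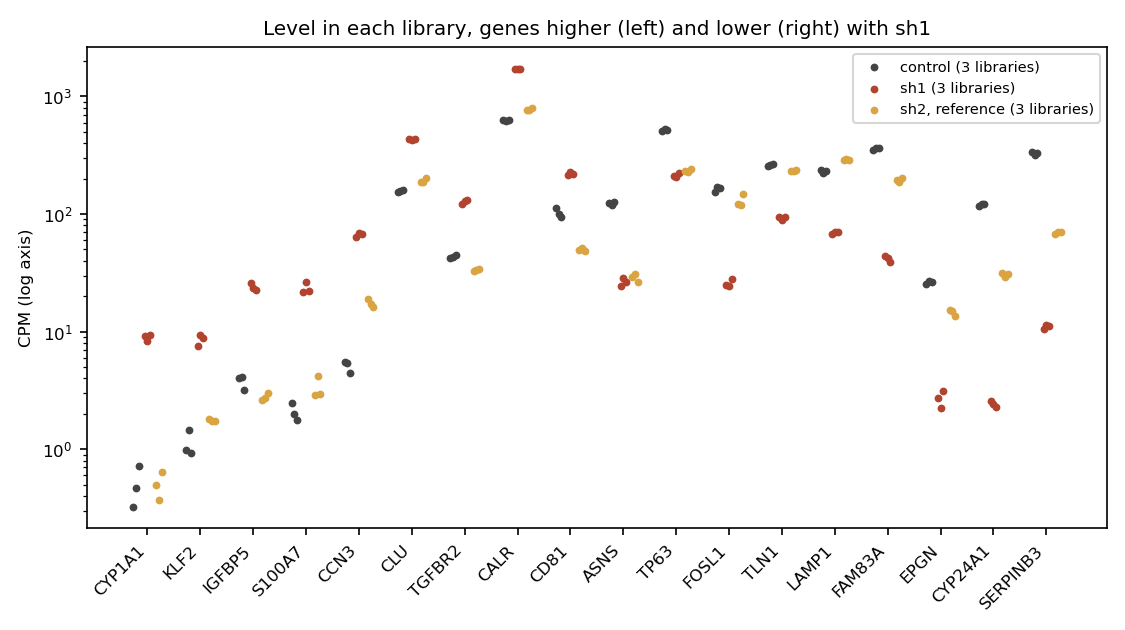
Level of 18 genes in each of the 9 libraries, in CPM on a log axis, with control libraries in grey, sh1 in red and sh2 as reference in yellow. For each gene the 3 sh1 points stand apart from the 3 control points, CYP1A1 for example with 9.1, 8.26 and 9.3 CPM against 0.325, 0.466 and 0.725.

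Read per length, as a share of the transcript pool, TMSB10 (Entrez 9168), thymosin beta 10, which binds monomeric actin, gained most, from 2653 ± 80.9 to 4828 ± 87.5 TPM (SD, n = 3). IFI6, an interferon-induced protein of the endoplasmic reticulum (ER), went from 2669 ± 223 to 4831 ± 24 TPM, PTMA, a small acidic nuclear protein, from 3567 ± 129 to 5683 ± 92.8, and FTH1, the ferritin heavy chain, from 10207 ± 83.1 to 12172 ± 278. The next gains, in order, were MT2A, TUBA1B, CALR, HSP90B1, PRDX1 and HSP90AA1, the last by 1059 TPM. These 6 encode a metallothionein, an alpha-tubulin, 2 ER chaperones, a peroxidase and a cytosolic chaperone. The largest loss was that of ACTB, beta-actin, which went from 5518 ± 181 to 3911 ± 96 TPM, KRT17, a stress keratin, from 4248 ± 35.4 to 2681 ± 51.9 and ACTG1, gamma-actin, from 2669 ± 52.5 to 1308 ± 7.21. DDIT4, an inhibitor of mTORC1, fell from 1245 ± 9.04 to 164 ± 6.39 TPM. IFITM1, SOD2, TNFAIP2, SFN and ID1 changed by -830.3 to -966 TPM each. TMSB10, PTMA, TUBA1B and the actins have many near-identical copies, so their levels are uncertain.

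**Figure D3:**
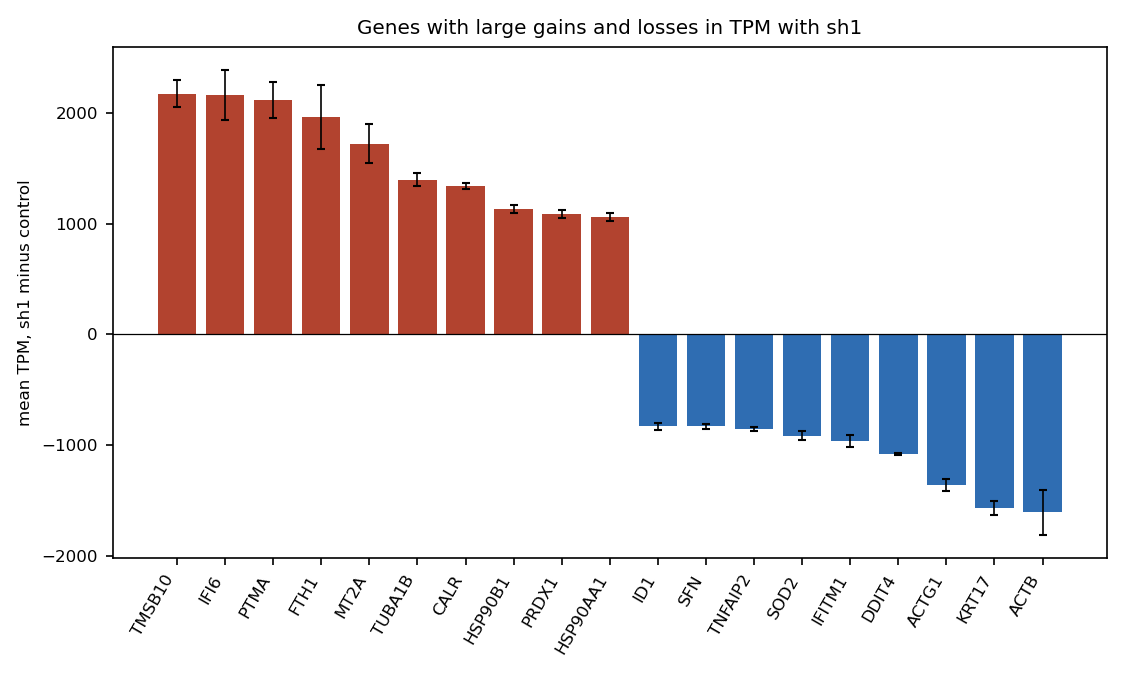
Bars give the mean TPM with sh1 minus the mean TPM in control for the 10 called genes that gained most and 9 of the 10 that lost most, with error bars of the root summed squares of the 2 SDs (n = 3 libraries each). TMSB10 gained 2175 TPM and ACTB changed by -1607.

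The integrated stress response lowers global translation when amino acids or folding capacity run short and lets the factor ATF4 be made, which turns on amino acid synthesis, uptake and tRNA charging. Genes of this program were lower with sh1. Of 14 tested regulators 12 fell, 8 of them at least 2-fold, and none rose, where over all genes 34.6% fell and 5.21% fell at least 2-fold. The median log2 change was -1.07 against 0.0141 over all genes. ATF4 (Entrez 468) itself was at 638, 615 and 639 CPM in the control libraries and 301, 305 and 301 CPM with sh1, so that every sh1 library lay below the lowest control, and its log2 change was -1.06 ± 0.027. A bracket after a gene gives, from here on, its log2 change with sh1 against control ± SE. DDIT3, the pro-apoptotic factor CHOP (-2.06 ± 0.079), ATF3 (-2.02 ± 0.04) and the pseudokinase TRIB3 (-1.95 ± 0.053) fell about 4-fold, as did PPP1R15A, whose product helps remove the phosphate that starts the response (-1.97 ± 0.037).

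Genes that supply amino acids fell too. Of 15 tested transporters (16 listed) 13 fell and 8 at least 2-fold, with a median log2 change of -1.04. The largest named fall was that of the cystine carrier SLC7A11, from 362 ± 5.22 to 86.9 ± 1.54 CPM. SLC1A3, a glutamate carrier (-1.69 ± 0.047), and SLC7A8 (-1.26 ± 0.062) fell too, while the abundant SLC7A5 and its partner SLC3A2 had log2 changes of -0.37 ± 0.026 and -0.39 ± 0.028. Against sh2, 12 of the 15 were higher with sh1 and 1 lower, where 34.2% and 35.6% of all genes were. Later counts of list members against sh2 are to be read against the same shares. Of 16 enzymes of amino acid and folate metabolism 13 fell, 5 at least 2-fold, and 2 rose. ASNS (Entrez 440), asparagine synthetase, was at 125, 119.5 and 126 CPM in the control libraries and 24.3, 28.6 and 26.3 CPM with sh1. GPT2 (-1.97 ± 0.056) and ALDH1L2 (-1.51 ± 0.11) fell by more than 2-fold, the serine enzyme PHGDH (-0.76 ± 0.035) and MTHFD2 (-0.67 ± 0.033) by less. MTHFD1 and ALDH18A1 rose, by 0.18 ± 0.028 and 0.15 ± 0.037. Of 20 aminoacyl-tRNA synthetases 16 fell, WARS1, CARS1, YARS1 and GARS1 at least 2-fold with log2 changes of -1.67 ± 0.03, -1.35 ± 0.05, -1.05 ± 0.033 and -1.01 ± 0.029. QARS1, HARS1 and KARS1 rose, by 0.38 ± 0.033, 0.34 ± 0.043 and 0.11 ± 0.032, the last not called without sh1 library 2 (0.076). The largest adjusted p among the genes said to have changed was 0.00474 for KARS1 (quasi-likelihood F-test of edgeR, Benjamini-Hochberg adjusted). Genes said to have changed were all called, many of them picked as the largest changes of their list. This value and later ones like it therefore add no support.

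ATF4 pairs with a C/EBP factor on a composite element, searched here as TGATGNAA on both strands in the 250 bases before to 50 after the start of each gene (RefSeq, GRCh38.p14). It was found in 195 of 11061 promoters of tested genes (1.76%), in 2 of 12 regulators (16.7%), 3 of 11 enzymes (27.3%), 6 of 16 synthetases (37.5%) and 4 of 14 transporters (28.6%). The 250 bases before the start of ASNS, chr7:97872409-97872658 on the minus strand, show the match in capitals, 68 bases before the start, because ASNS is the called holder with the largest change.
ASNS: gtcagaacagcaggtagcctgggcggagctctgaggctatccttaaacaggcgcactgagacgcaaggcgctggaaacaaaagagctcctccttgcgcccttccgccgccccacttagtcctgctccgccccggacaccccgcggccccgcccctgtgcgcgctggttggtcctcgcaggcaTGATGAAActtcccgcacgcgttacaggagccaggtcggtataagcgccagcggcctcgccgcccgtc

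The folding machinery of the ER, which the unfolded protein response also serves, went the other way. Of 23 ER chaperones and folding enzymes 19 rose, 7 at least 2-fold, and 3 fell, with a median log2 change of 0.69. Over all genes 34.7% rose and 3.93% rose at least 2-fold. CALR (Entrez 811), calreticulin, was at 625, 614 and 628 CPM in the control libraries and 1710.2, 1707 and 1715 CPM with sh1, and the sh1 libraries were all more than 2-fold above the highest control. HSP90B1, the ER HSP90, went from 1096 ± 10.5 to 2489 ± 19.6 CPM, HSPA5, the chaperone BiP, from 666 ± 14.1 to 1262 ± 0.852 CPM and the isomerase PDIA4 from 223 ± 1.11 to 472 ± 7.38 CPM. CRELD2 and SDF2L1, small folding factors, rose by 1.78 ± 0.05 and 1.51 ± 0.11 on the log2 scale. The falls were ERO1B, an oxidase of disulfide formation (-1.14 ± 0.084 on the log2 scale), DNAJC3 (-0.15 ± 0.052) and TXNDC5 (-0.12 ± 0.034). The call of DNAJC3 was lost without sh1 library 3 (-0.13). Summed over the list, the chaperones took 5570 to 5660 TPM in the control libraries and 10600 to 10800 with sh1. XBP1, the factor spliced in the unfolded protein response, fell (-1.03 ± 0.038), and so did its splicing kinase ERN1 (-1.51 ± 0.12). Among 17 tested genes of ER-associated degradation 7 rose and 7 fell. The chaperone promoters held CCACG, the core of the ER stress element, in 16 of 22 cases (72.7%) against 48.6% of all promoters. Of those holders CRELD2 had the largest change, and the 250 bases before its start, chr22:49918384-49918633 on the plus strand, are given with the match in capitals.
CRELD2: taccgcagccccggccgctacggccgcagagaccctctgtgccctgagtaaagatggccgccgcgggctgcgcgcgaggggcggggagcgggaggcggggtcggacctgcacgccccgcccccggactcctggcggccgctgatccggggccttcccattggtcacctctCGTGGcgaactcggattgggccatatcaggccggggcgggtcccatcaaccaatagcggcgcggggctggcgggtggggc

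Genes that move proteins into the ER rose as well. Of 22 translocon, signal peptidase and oligosaccharyltransferase genes 16 rose and 5 fell, with a median log2 change of 0.45. SEC61A1, the channel, went from 229.5 ± 4.6 to 486 ± 2.76 CPM and RPN1, a subunit of the oligosaccharyltransferase, from 332 ± 16.3 to 695 ± 5.2 CPM. The falls, SEC11A (-0.34 ± 0.048), DAD1 (-0.33 ± 0.049) and SSR1 (-0.21 ± 0.035) among them, were small on the log2 scale. The COPI and COPII coats, which carry cargo between ER and Golgi, were mixed, with 12 rises and 7 falls in 23. SEC23A rose by 0.68 ± 0.041 and the ER retention receptor KDELR3 by 1.19 ± 0.082 on the log2 scale, while SEC31A and SEC24D fell (-0.42 ± 0.034 and -0.53 ± 0.06).

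Of 31 proteasome genes 29 rose and 1 fell, PSMD6 (-0.47 ± 0.05 on the log2 scale). None reached 2-fold. The median log2 change was 0.52, and PSMB2, a core subunit, went from 212 ± 2.49 to 398 ± 6.31 CPM and the lid subunit PSMD2 from 299.7 ± 8.96 to 521 ± 7.83 CPM. Their summed level was 6810 to 7080 TPM in the control libraries and 9240 to 9430 with sh1. Among 24 heat shock genes, not all of them cytosolic, 15 rose, 3 at least 2-fold, and 5 fell, and the median was 0.19. HSPA8, the constitutive HSP70, went from 687 ± 14.3 to 1562 ± 37.8 CPM and HSP90AA1 from 1656 ± 11.9 to 3195 ± 12.8 CPM. The inducible HSPA1A and HSPA1B rose by 1.11 ± 0.028 and 1.29 ± 0.029 on the log2 scale, with the reads of this near-identical pair split uncertainly. HSF1, the factor of the heat shock response, fell (-0.38 ± 0.043), and so did its targets DNAJB1 (-0.41 ± 0.035) and BAG3 (-0.62 ± 0.042). The TRiC chaperonin and prefoldin had 9 rises and 4 falls in 14, none of 2-fold. VCP, the segregase that feeds the proteasome, rose by 0.93 ± 0.031 on the log2 scale. The largest adjusted p among the proteasome and chaperone genes said to have changed was 3.85e-09 for HSF1 (quasi-likelihood F-test of edgeR, Benjamini-Hochberg adjusted).

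**Figure D4:**
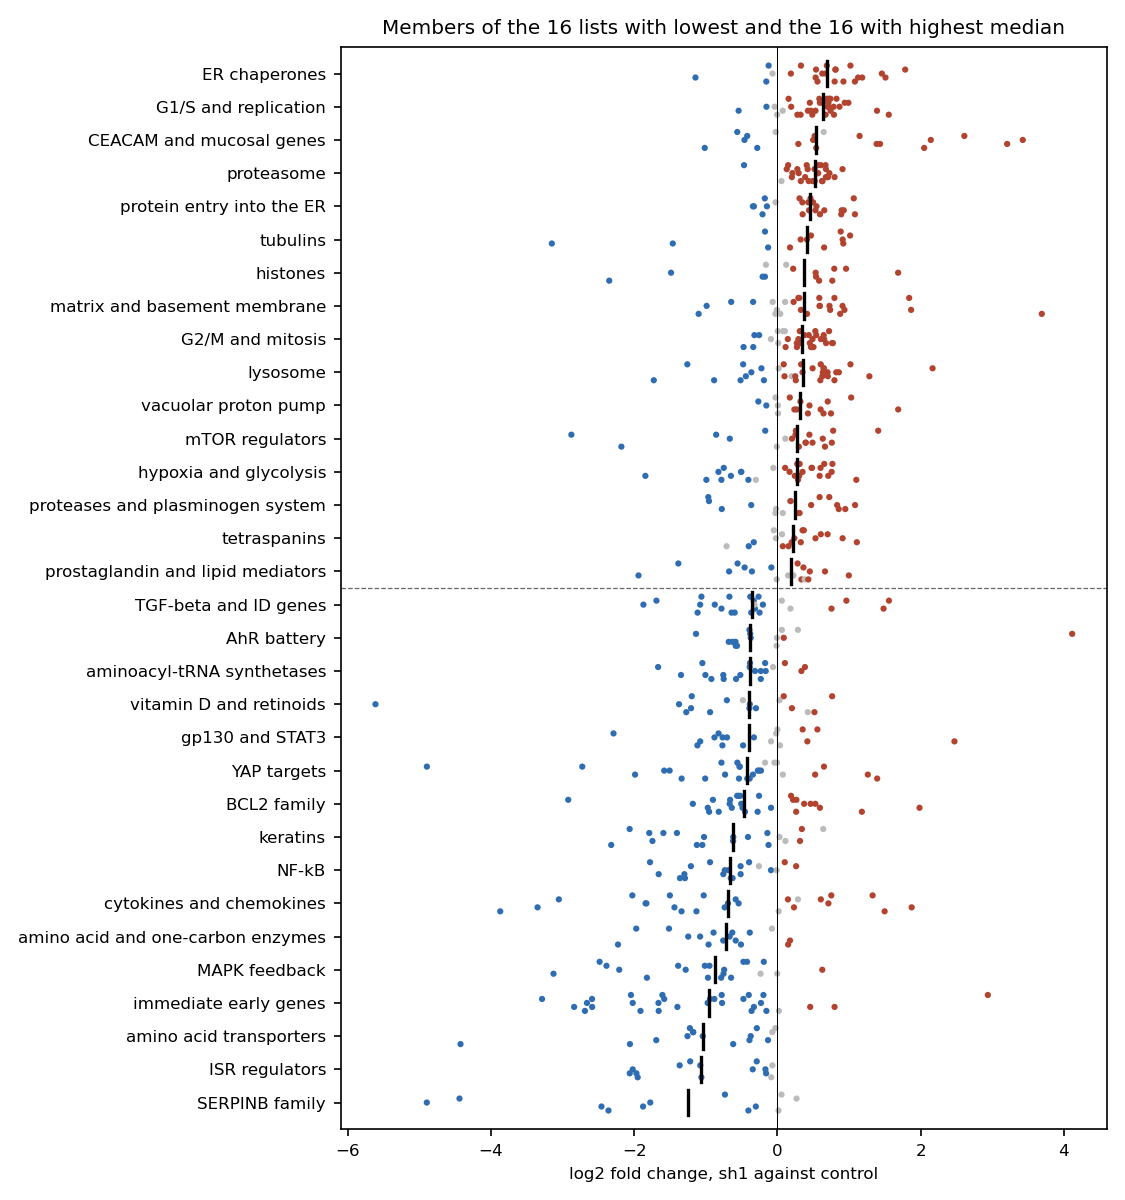
Each point is a tested member of a gene list, placed by its log2 fold change, sh1 against control, with called rises in red, called falls in blue and others in grey. Black bars mark list medians, from -1.25 for the SERPINB family to 0.69 for ER chaperones. The lists of cell type markers, squamous identity among them, are left out. Of the other lists with at least 10 tested genes, the 16 with the lowest and the 16 with the highest median are drawn.

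Signals from growth factor receptors pass through the MAP kinase cascade to immediate early genes and, with a delay, to phosphatases and Sprouty proteins that damp it. Of 30 immediate early genes 26 fell, 14 at least 2-fold, and 3 rose, with a median log2 change of -0.96. EGR1 (Entrez 1958) was at 357, 386 and 376 CPM in the control libraries and 39.2, 36 and 39.6 CPM with sh1. FOS (-2.69 ± 0.072) and FOSB (-2.84 ± 0.094) fell steeply, whereas the log2 change of JUN was -0.40 ± 0.039. FOSL1 (Entrez 8061), the FRA1 subunit of AP-1 that is high in squamous carcinoma, went from 163 ± 8.08 to 25.8 ± 1.99 CPM. KLF2, BTG2 and KLF6 were the 3 rises, by 2.94 ± 0.18, 0.80 ± 0.056 and 0.46 ± 0.062. Of 20 feedback genes 17 fell, 8 at least 2-fold, and DUSP10 alone was called higher (0.63 ± 0.11 on the log2 scale). The ERK phosphatase DUSP6 went from 43.1 ± 1.2 to 7.71 ± 0.971 CPM. SPRY4 (-2.21 ± 0.17), the ETS factor ETV5 (-2.39 ± 0.13) and PHLDA1 (-3.13 ± 0.041) fell as well. SPRY2, with -0.23 ± 0.16, was called lower only without control library 1 (-0.39). AP-1 sites, TGANTCA on both strands, were found in 1 of 23 immediate early promoters (4.35%) and 1 of 15 feedback promoters (6.67%), near the 4.95% of all promoters.

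Growth factors of the EGF family bind the receptors EGFR and ERBB3 or their relatives. Of 17 genes of the EGF family and its receptors 8 fell, 7 of them at least 2-fold, and 6 rose, with a median log2 change of -0.08. This median was unstable, from -0.778 to -0.0347 over the alternative runs. EREG was at 88.2, 92.1 and 91.4 CPM in the control libraries and 7.26, 8.74 and 7.33 CPM with sh1. EPGN (Entrez 255324), epigen, was at 25.3, 26.9 and 26.6 and 2.71, 2.24 and 3.12 CPM. The ligands HBEGF (-2.39 ± 0.091), AREG (-1.95 ± 0.1) and TGFA (-1.49 ± 0.068) fell, and so did the feedback inhibitor ERRFI1 (-2.06 ± 0.041). The ligands EGF and BTC rose by 1.78 ± 0.12 and 0.42 ± 0.092, and ERBB3, the receptor with little kinase activity, by 0.59 ± 0.034. EGFR went from 178 ± 5.58 to 103 ± 3.98 CPM. Among other receptor tyrosine kinases and their ligands, FGF2 (-1.76 ± 0.058), FGFBP1, which frees FGF from the matrix (-2.89 ± 0.071), and EPHA2, an ephrin receptor of epithelia (-1.77 ± 0.033), fell. FAM83A, an adaptor of EGFR and RAF signalling, went from 359 ± 6.46 to 41.7 ± 2.61 CPM. The largest adjusted p among these calls was 0.000169 for BTC (quasi-likelihood F-test of edgeR, Benjamini-Hochberg adjusted).

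YAP1 is the transcriptional arm of the Hippo pathway and works through TEAD factors. YAP1 (Entrez 10413) was at 428, 432 and 424 CPM in the control libraries and 167, 171 and 169 CPM with sh1, a log2 change of -1.34 ± 0.029. Of 27 genes of the pathway and its targets 19 fell, 7 at least 2-fold, and 4 rose, with a median of -0.42. CCN2 went from 262 ± 2.98 to 8.82 ± 1.42 CPM, its relative CCN1 from 87.3 ± 3.84 to 29.2 ± 0.803 CPM, AMOTL2 from 384 ± 5.2 to 96.8 ± 2.92 CPM and F3, tissue factor, from 378 ± 7.25 to 57.2 ± 1.26 CPM. The rises were NT5E (1.39 ± 0.06 on the log2 scale), DKK1 (1.26 ± 0.088), FSTL1 (0.65 ± 0.041) and NF2, an upstream brake on YAP (0.53 ± 0.058). The TEAD core GGAATG was found in 7 of 21 of these promoters (33.3%) and in 10.8% of all. CCN2 has 3 matches in the 250 bases before its start, chr6:131951373-131951622 on the minus strand, at 169, 104 and 95 bases from it, and they are in capitals.
CCN2: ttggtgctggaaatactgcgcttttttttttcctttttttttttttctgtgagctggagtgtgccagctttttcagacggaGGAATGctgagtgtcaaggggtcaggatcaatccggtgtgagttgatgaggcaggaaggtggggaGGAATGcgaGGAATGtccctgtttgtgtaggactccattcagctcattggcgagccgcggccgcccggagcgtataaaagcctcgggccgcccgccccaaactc

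Of 24 genes of the TGF-beta family, its feedback and the ID factors 17 fell, 5 at least 2-fold, and 4 rose. ID1, an inhibitor of helix-loop-helix factors, went from 612 ± 18.1 to 283 ± 1.98 CPM, ID3 from 258 ± 2.95 to 122 ± 4.77 CPM and ID4 from 48.3 ± 1.31 to 15 ± 0.62 CPM. BHLHE40 (-1.87 ± 0.041) and SMAD3 (-0.60 ± 0.031) fell too. The receptor TGFBR2 (Entrez 7048) rose, at 42.4, 42.7 and 45 CPM in the control libraries and 123, 129.5 and 131 with sh1, as did the matrix protein TGFBI by 0.76 ± 0.025 on the log2 scale. In the Notch list 9 of 17 tested genes fell and 5 rose, with JAG1 at -1.86 ± 0.049, DLL1 at -1.33 ± 0.069 and HES1 at -0.94 ± 0.043 on the log2 scale, and the glycosyltransferase LFNG rose by 1.18 ± 0.092. Of 23 tested Wnt genes 9 fell and 8 rose. WNT5A fell (-2.24 ± 0.044). With 17 of 23 called, the Wnt list was near the 69.3% of all genes.

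NF-kB factors drive inflammatory genes and their own inhibitors. Of 20 genes of this group 16 fell, 6 at least 2-fold, and 2 rose, with a median log2 change of -0.67. The subunits NFKB1 (-1.29 ± 0.035) and NFKB2 (-1.30 ± 0.035) and the inhibitor TNFAIP3 (-1.36 ± 0.032) fell. TNFAIP2 (Entrez 7127) was at 1998, 2027 and 2001 CPM in the control libraries and 598, 573 and 585 with sh1, and SOD2, the mitochondrial superoxide dismutase, went from 1804 ± 30.3 to 572 ± 4.2 CPM. Of 25 tested cytokines and chemokines (31 listed) 15 fell, 11 at least 2-fold, and 8 rose. IL1A, the epithelial alarmin, was at 238, 231 and 228 CPM in the control libraries and 17, 15.3 and 15.3 with sh1. CXCL8 went from 331 ± 4.56 to 39.9 ± 2.41 CPM, CCL20 from 143 ± 6.52 to 40.4 ± 3.15 CPM, CXCL1 from 244 ± 9.21 to 111 ± 0.916 CPM and LIF from 89.9 ± 1.99 to 22.1 ± 0.276 CPM. CXCL11, CCL28 and CXCL10 rose, by 1.50 ± 0.078, 1.33 ± 0.049 and 0.75 ± 0.044 on the log2 scale. PTGS2, the inducible cyclooxygenase, fell (-1.94 ± 0.046). The shared receptor chain IL6ST (-0.77 ± 0.038), the oncostatin receptor OSMR (-0.82 ± 0.027) and the feedback gene SOCS3 (-2.29 ± 0.057) fell, and the IL-6 receptor IL6R (Entrez 3570) rose from 23.1 ± 1.02 to 128 ± 1.25 CPM. The largest adjusted p among these calls was 1.32e-15 for CXCL10 (quasi-likelihood F-test of edgeR, Benjamini-Hochberg adjusted).

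Interferon-stimulated genes had no common direction. Of 33, 12 rose and 14 fell, with a median of 0.0. IFI6 rose by 0.90 ± 0.039, IFIT1 by 0.79 ± 0.029 and HERC6 by 1.11 ± 0.032 on the log2 scale. IFITM1 (-0.78 ± 0.031), IFITM2 (-1.18 ± 0.072), IRF1 (-0.81 ± 0.03) and ISG15 (-0.14 ± 0.038) fell. MX1 was not called, at 0.05 ± 0.041. Against sh2, 25 of the 33 were lower with sh1 and 7 higher, where 35.6% and 34.2% of all genes were. The 16 sensors of double-stranded RNA gave 6 rises and 6 falls, none of 2-fold. RIGI (-0.49 ± 0.031) and EIF2AK2, the kinase PKR (-0.29 ± 0.031), fell. The RNA interference genes gave 8 rises and 6 falls in 17, with DICER1 at 0.30 ± 0.03 on the log2 scale and AGO2 at -0.26 ± 0.084, not called without sh1 library 2 (-0.19). Of 20 antigen presentation genes 11 rose and 7 fell. HLA-B and HLA-C, whose many alleles make read assignment uncertain, rose by 0.59 ± 0.03 and 0.63 ± 0.031, while PSMB9 and TAP1 of the peptide supply fell (-0.49 ± 0.049 and -0.43 ± 0.03). Complement and coagulation genes fell in 11 of 19 tested, among them CD55 (-1.31 ± 0.036), THBD (-1.61 ± 0.074) and CFB (-0.74 ± 0.027), and CLU (Entrez 1191), clusterin, a secreted chaperone, rose from 158 ± 3.79 to 435 ± 6.34 CPM.

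Squamous identity genes were mostly lower. Of 19 tested markers 13 fell, 5 at least 2-fold, and 3 rose, with a median log2 change of -0.62. TP63 (Entrez 8626), the master factor of the basal layer, was at 506, 525 and 523 CPM in the control libraries and 211, 208 and 221 CPM with sh1. KRT5 went from 1496 ± 11.3 to 975 ± 5.34 CPM, KRT14 from 34 ± 0.508 to 8.14 ± 0.32 CPM and KRT6B from 53.8 ± 1.34 to 15.6 ± 1.04 CPM. SOX2, amplified in many squamous cancers, rose from 20.8 ± 0.491 to 49.8 ± 0.776 CPM, and COL17A1 and DSC3 by 0.74 ± 0.037 and 0.39 ± 0.034 on the log2 scale. Of 19 tested keratins 14 fell and KRT8 and KRT19 alone were called higher, by 0.32 ± 0.025 and 0.34 ± 0.12. The call of KRT19 was lost without control library 2 (0.25) or sh1 library 2 (0.28). Against sh2, 17 keratins were lower and none higher. ZNF750, a factor of terminal differentiation (-2.06 ± 0.13), RUNX1 (-1.48 ± 0.041) and FOXQ1 (-1.57 ± 0.061) fell. SNAI2, a factor of cell migration, went from 24.4 ± 0.637 to 5.31 ± 0.796 CPM, while SOX4 (0.99 ± 0.039) rose. KLF4 was not called (0.02 ± 0.051).

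No tested member of the SERPINB family of protease inhibitors was called higher, and 9 of 12 fell, 6 at least 2-fold, with the lowest median of all lists with at least 10 tested genes, -1.25. SERPINB3 was at 336, 318 and 327 CPM in the control libraries and 10.5, 11.3 and 11.2 with sh1. SERPINB1, an inhibitor of neutrophil elastase, went from 319.8 ± 12.4 to 62.4 ± 0.811 CPM and SERPINB13 from 102 ± 2.6 to 18.6 ± 0.56 CPM, while SERPINB5, maspin, was not called (0.06 ± 0.04). The cornified envelope was split, with 14 rises and 12 falls in 30 tested, of which 8 and 3 were at least 2-fold. IVL, involucrin, rose by 2.36 ± 0.15, SBSN, suprabasin, by 2.13 ± 0.16 and ECM1 by 1.84 ± 0.19 on the log2 scale, all from low levels of 1.78 ± 0.268, 2.15 ± 0.277 and 1.76 ± 0.554 CPM. EMP1 (-1.32 ± 0.039), KLK8 (-1.15 ± 0.13) and TGM1, the envelope's transglutaminase (-0.62 ± 0.079), fell. Of 19 tested CEACAM and mucosal genes (24 listed) 12 rose, 8 at least 2-fold, and 5 fell. AGR2 (Entrez 10551), a disulfide isomerase of mucus-secreting cells, was at 14.1, 17.2 and 14 CPM in the control libraries and 60.3, 63.4 and 63.4 with sh1. LCN2, lipocalin, went from 1058 ± 15.1 to 1295 ± 38.6 CPM. MUC4, the abundant membrane mucin of this line, fell from 2867 ± 313 to 1419 ± 59.9 CPM, MUC16 fell (-0.46 ± 0.053), and MUC1 was not called (-0.02 ± 0.05). The S100 family gave 6 rises and 3 falls in 14 tested. S100A2 rose (0.87 ± 0.045) and S100P fell (-1.56 ± 0.047). The largest adjusted p among these calls was 3.88e-08 for TGM1 (quasi-likelihood F-test of edgeR, Benjamini-Hochberg adjusted).

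Adhesion genes changed in part. Of 30 integrin and focal adhesion genes 20 fell, 4 at least 2-fold, and 5 rose. TLN1 (Entrez 7094), talin, which links integrins to actin, was at 255, 263 and 268 CPM in the control libraries and 95, 89.5 and 95.2 with sh1. ZYX (-0.94 ± 0.046), VCL (-0.53 ± 0.026), TNS4 (-1.24 ± 0.034), ITGB6 (-1.08 ± 0.045) and ITGB8 (-1.41 ± 0.059) fell too. ITGA5, the fibronectin receptor chain, rose from 36.8 ± 1.12 to 113 ± 2.07 CPM, and ITGB1 was not called (0.03 ± 0.026). Of 26 tested matrix genes 17 rose and 4 fell, with a median of 0.37, and 21 of them were higher with sh1 than with sh2. FN1, fibronectin, went from 123 ± 2.85 to 235 ± 8.71 CPM, TNC, tenascin C, from 20.3 ± 0.678 to 74.1 ± 3.06 CPM and SPARC from 285 ± 0.686 to 380.1 ± 1.66 CPM. THBS1 and COL12A1 fell (-0.99 ± 0.039 and -1.10 ± 0.034) on the log2 scale. The desmosomal cadherins parted, with DSC2 higher by 1.26 ± 0.034 and DSG3 and DSG2 lower (-1.13 ± 0.038 and -0.85 ± 0.029). E-cadherin, CDH1, rose from 426 ± 12.2 to 647 ± 18.2 CPM and EPCAM from 334 ± 7.16 to 662 ± 10.5 CPM. CLDN1 (-1.27 ± 0.042) and TJP3 (-1.04 ± 0.041) of the tight junction fell. Of 18 tested tetraspanins 12 rose and 2 fell, and CD81 went from 102 ± 8.96 to 220.2 ± 6.53 CPM. In the actin list 16 of 28 tested genes rose and 9 fell. TMSB4X, thymosin beta 4, fell from 251 ± 15.4 to 78.2 ± 0.867 CPM where its relative TMSB10 rose. Of 13 genes of the tubulin list, which also holds STMN1, not a tubulin, 9 rose and 4 fell. TUBB4B went from 348 ± 7.78 to 703 ± 23 CPM and TUBB2B from 11.5 ± 1.35 to 1.29 ± 0.202 CPM.

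Most genes of the cell cycle lists rose. Of 33 genes of G1/S and replication 28 rose, 2 at least 2-fold, and 2 fell, with a median log2 change of 0.64. E2F1 (Entrez 1869), which turns on the replication genes, was at 31.4, 29.7 and 32.4 CPM in the control libraries and 89.5, 97.1 and 88.4 with sh1, and E2F2 rose by 1.39 ± 0.059 on the log2 scale. MCM2, a helicase subunit, went from 162 ± 3.4 to 265 ± 8.7 CPM. RRM1 and CDT1 fell (-0.54 ± 0.05 and -0.15 ± 0.047). Of 32 mitotic genes 23 rose and 4 fell, none of 2-fold, with a median of 0.35, and 24 were lower with sh1 than with sh2. MKI67 rose from 359 ± 9.85 to 502 ± 16.5 CPM and CCNB1 from 68.7 ± 1.49 to 117 ± 1.46 CPM, while CCNA2 and CDK1 fell (-0.47 ± 0.043 and -0.32 ± 0.049) on the log2 scale. The E cyclins CCNE1 (Entrez 898) and CCNE2 rose by 1.80 ± 0.069 and 1.41 ± 0.07, while CCND2 (-2.39 ± 0.19) and the abundant CCND1 (-0.14 ± 0.024) fell. Of 22 p53 targets 9 rose and 10 fell. CDKN1A rose by 0.23 ± 0.032 and CCNG1 by 1.28 ± 0.036 on the log2 scale, GDF15 fell from 147 ± 5.73 to 37 ± 0.535 CPM and SESN2, which is also an ATF4 target, from 98 ± 1.15 to 21.7 ± 0.889 CPM. In the BCL2 family list, which also holds caspases, every one of 28 tested genes was called, 18 lower and 10 higher. Over all genes 69.3% were called, 34.6% lower and 34.7% higher, so the rises were near their share. The pro-apoptotic BMF and BCL2L11 rose by 1.98 ± 0.059 and 1.18 ± 0.047, the protective MCL1 and BCL2L1 fell (-0.67 ± 0.025 and -0.49 ± 0.039), and the pro-apoptotic BAK1 and PMAIP1 fell (-0.97 ± 0.047 and -0.66 ± 0.046) on the log2 scale.

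The E2F site, TTTCGCGC or TTTGGCGC on either strand, was found in 11 of 29 promoters of the G1/S list (37.9%) and in 2.05% of all. E2F1 is the called holder with the largest change. The 250 bases before its start, chr20:33686386-33686635 on the minus strand, hold a match 20 bases from it, in capitals.
E2F1: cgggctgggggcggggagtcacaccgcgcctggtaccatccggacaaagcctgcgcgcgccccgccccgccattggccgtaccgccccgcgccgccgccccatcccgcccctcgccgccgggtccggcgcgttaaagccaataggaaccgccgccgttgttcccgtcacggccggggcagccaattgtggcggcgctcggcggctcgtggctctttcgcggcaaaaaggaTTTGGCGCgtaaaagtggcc

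Metallothioneins bind zinc and copper and are induced by metals and glucocorticoids. Of 17 genes of metallothioneins and zinc transport 10 were tested, of which 4 rose and 4 fell. The 3 tested metallothioneins were among the rises, MT1F by 1.19 ± 0.29 on the log2 scale. MT2A (Entrez 4502) was at 54.9, 45 and 45.8 CPM in the control libraries and 329, 398 and 358 with sh1, and MT1X went from 5.18 ± 0.112 to 24.4 ± 1.25 CPM. The MT1 genes are near-identical, so the split of reads between them is uncertain. The zinc importer SLC39A10 fell from 139 ± 1.78 to 32.7 ± 0.706 CPM. Metal response elements, TGCACNC or TGCGCNC on either strand, were found in 4 of 8 promoters of the list (50%) and in 38.4% of all, so these short letters alone are common. MT2A, the called holder with the largest change, is shown. It holds 7 matches, in capitals, in the 250 bases before its start, chr16:56608334-56608583 on the plus strand.
MT2A: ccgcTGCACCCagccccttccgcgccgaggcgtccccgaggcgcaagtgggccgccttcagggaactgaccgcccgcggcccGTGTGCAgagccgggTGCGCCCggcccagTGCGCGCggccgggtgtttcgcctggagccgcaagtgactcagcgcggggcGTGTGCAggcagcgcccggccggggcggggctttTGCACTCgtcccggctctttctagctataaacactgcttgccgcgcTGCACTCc

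CYP1A1 rose while most of its pathway fell. The aryl hydrocarbon receptor AHR binds planar ligands and, with ARNT, turns on CYP1A1, CYP1B1, TIPARP and others. Of 15 genes of this group 9 fell and 2 rose, CYP1A1 and NQO1 (0.09 ± 0.029 on the log2 scale, and not called without sh1 library 2, at 0.058). CYP1B1 went from 343 ± 4.06 to 232 ± 3.3 CPM, TIPARP from 53.5 ± 2.42 to 34.7 ± 0.964 CPM, ALDH3A1 from 76.4 ± 2.56 to 58.7 ± 0.673 CPM and ARNT from 98 ± 3.55 to 61.2 ± 2.07 CPM, all lower. AHR (-0.01 ± 0.031) and its repressor AHRR (-0.01 ± 0.17) were not called. The core GCGTG was found in 8 of 12 of these promoters (66.7%) and in 49.6% of all. The 250 bases before the start of CYP1A1, chr15:74725529-74725778 on the minus strand, hold 1 match, 57 bases from it, in capitals.
CYP1A1: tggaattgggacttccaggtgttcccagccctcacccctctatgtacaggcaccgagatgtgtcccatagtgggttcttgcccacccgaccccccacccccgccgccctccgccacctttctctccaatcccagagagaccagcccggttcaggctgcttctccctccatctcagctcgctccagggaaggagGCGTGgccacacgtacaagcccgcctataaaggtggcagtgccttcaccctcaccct

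Other oxidative and nutrient programs were uneven. The NRF2 list, which serves glutathione and quinone metabolism, gave 9 rises and 14 falls in 25. NFE2L2, which encodes NRF2, fell from 319.6 ± 6.07 to 187 ± 5.94 CPM, GCLM and ME1 fell (-1.86 ± 0.039 and -1.28 ± 0.037) on the log2 scale, PRDX1 rose by 0.91 ± 0.03 and HMOX1 was not called (0.06 ± 0.059). In the hypoxia and glycolysis list 17 of 29 rose and 9 fell. HIF1A went from 789 ± 23.5 to 459 ± 3.59 CPM and VEGFA from 452 ± 17.5 to 126 ± 5.94 CPM, whereas the glucose carrier SLC2A1 and LDHA rose by 0.77 ± 0.029 and 0.48 ± 0.03 on the log2 scale. The vitamin D receptor VDR (-1.27 ± 0.065) and the retinoic acid receptor RARG (-1.37 ± 0.038) fell. Of 27 cholesterol genes 9 rose and 15 fell, 1 at least 2-fold, with a median log2 change of -0.09. INSIG2 (-1.27 ± 0.1) was the largest fall above 5 CPM, and 21 of the 27 were higher with sh1 than with sh2. HADHA, of mitochondrial beta-oxidation, was at 277, 269.7 and 267 CPM in the control libraries and 75.5, 75.5 and 80.8 with sh1. ACLY and ACSL4 fell (-0.89 ± 0.029 and -1.06 ± 0.038) on the log2 scale. TFRC, the transferrin receptor, went from 1010.4 ± 27.2 to 1600.1 ± 2.68 CPM.

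Of 33 lysosomal genes 22 rose and 9 fell, with a median of 0.35. CTSD, cathepsin D, went from 585 ± 11.2 to 1060.3 ± 10.7 CPM and CTSA from 176 ± 1.85 to 358 ± 8.61 CPM. LAMP1 (Entrez 3916), the main membrane protein of the lysosome, fell, with 235, 224 and 231 CPM in the control libraries and 68.1, 69.8 and 70.7 CPM with sh1, while LAMP2 rose by 0.63 ± 0.032 on the log2 scale. The factors TFEB and TFE3 fell (-1.26 ± 0.11 and -0.88 ± 0.039). Of 20 tested mTOR regulators 13 rose and 5 fell, with DDIT4 and SESN2 falling at least 2-fold. DDIT4 had 887, 881 and 863 CPM in the control libraries and 123, 119.9 and 115 CPM with sh1.

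Large housekeeping complexes moved little. None of 49 oxidative phosphorylation genes reached 2-fold, with 28 rises, 8 falls and a median of 0.16. Of 45 cytosolic ribosomal protein genes 29 rose and 10 fell, none at 2-fold, and their summed level was 69700 to 73000 TPM in the control libraries and 72400 to 74000 with sh1. Splicing genes gave 24 rises and 13 falls in 45. Ribosome biogenesis leaned lower, with 21 falls and 5 rises in 32 and a median of -0.21, and DDX21 fell from 406 ± 4.85 to 227 ± 3.11 CPM. In the mitochondrial ribosome, 10 rises and 13 falls in 30, the subunits MRPS35 (Entrez 60488) and MRPL20 (Entrez 55052) stood apart. MRPS35 was at 91, 92.7 and 92.9 CPM in the control libraries and 25.7, 25.3 and 24.7 with sh1, and MRPL20 at 44.6, 40.9 and 44.6 and 15.9, 16.3 and 17.1 CPM. Among 30 nuclear pore and transport genes NUP160 fell from 161 ± 2.93 to 81.1 ± 3.09 CPM and KPNA2, an importin, rose from 136 ± 2.67 to 293 ± 8.65 CPM. Their largest adjusted p was 8.09e-19 for MRPL20 (quasi-likelihood F-test of edgeR, Benjamini-Hochberg adjusted).

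Some of these changes were much larger with sh1 than with sh2, in a test of the difference between the hairpins. Against sh2, 4647 genes were higher with sh1 (34.2%) and 4830 lower (35.6%), together 9477 or 69.8%. The comparisons of each hairpin with control share the control libraries, and their values are given side by side. CYP1A1 had a log2 change of 4.12 ± 0.22 with sh1 and -0.00 ± 0.4 with sh2, a difference of 4.12 ± 0.21. S100A7 differed by 2.82 ± 0.12 on the log2 scale, IGFBP5 by 3.10 ± 0.11, KLF2 by 2.29 ± 0.16, ABAT, which degrades the transmitter GABA, by 2.51 ± 0.15 and CCN3 by 1.93 ± 0.058, each higher with sh1. ABAT went from 3.31 ± 0.539 to 14 ± 1.13 CPM. CYP24A1 was lower with sh1 by -3.63 ± 0.096, SERPINB3 by -2.66 ± 0.059, EPGN by -2.44 ± 0.12, FOSL1 by -2.34 ± 0.071 and FAM83A by -2.22 ± 0.043 on the log2 scale. FGF21 had 27 counts over the sh2 libraries and 2 over those of sh1. FOSL1, for example, was at 24.8, 24.4 and 28 CPM with sh1, 123, 119 and 149 with sh2 and 153, 168 and 166 in control, so that sh1 and the other groups did not overlap. The largest adjusted p of the 11 tested differences was 2.08e-13 for KLF2 (quasi-likelihood F-test of edgeR, Benjamini-Hochberg adjusted). These genes were chosen for large called changes against both control and sh2, so this value adds no support.

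For several genes the fall with sh1 was much larger than any change with sh2. LAMP1 had log2 changes of -1.73 ± 0.035 with sh1 and 0.34 ± 0.029 with sh2, and TLN1 -1.49 ± 0.034 and -0.17 ± 0.03. HADHA had -1.81 ± 0.034 and -0.29 ± 0.03, TMSB4X -1.68 ± 0.039 and -0.13 ± 0.034, MRPS35 -1.87 ± 0.045 and 0.15 ± 0.034, and MRPL20 -1.40 ± 0.06 and 0.54 ± 0.045 on the same scale. NUP160 had -0.99 ± 0.037 and -0.06 ± 0.034, and the clock gene CRY1 -1.56 ± 0.069 and -0.05 ± 0.055. The differences between the hairpins for these 8 genes, -0.94 to -2.06 on the log2 scale, all had an adjusted p of at most 5.24e-18 (CRY1) (quasi-likelihood F-test of edgeR, Benjamini-Hochberg adjusted). These 8 were singled out after their values were seen.

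A few genes were at 0 in one group. There were 20 genes with 0 counts over the control libraries and at least 10 with sh1, of which H4C11 was among the 13580 tested. H4C11, a replication histone, had 26, 20 and 7 counts in the sh1 libraries. EIF3CL had 92 counts, all in 1 of the 3 libraries. MMP9, gelatinase B, had 4, 6 and 5 counts with sh1, TFF1, a trefoil peptide of mucosa, 6, 2 and 6, and EGFL6 3, 9 and 3. In the other direction 11 genes had 0 counts with sh1 and at least 10 in control. MTPN had 0, 322 and 0 counts in the control libraries and FSBP, which shares its locus with another gene, 74, 0 and 72. Over the sh2 libraries MTPN had 0 counts and FSBP 166. Since their counts stand in single libraries, the levels of EIF3CL and MTPN are uncertain. How reads were split between overlapping or near-identical genes was not tested. KCND2, a potassium channel, had 4, 5 and 4 counts in the control libraries. A count of 0 with 3 counts as its upper limit leaves for each of the sh1 libraries a level of up to 0.204 CPM, for counting error only.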

How the data were processed

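RNA of KYSE510 cells was measured with BGISEQ-500 libraries from total RNA, per the labels' protocols. The submitters' processing notes name the build hg19 and the tools RSEM 1.2.12, HISAT2 2.0.4, DESeq2 1.4.5 and Bowtie2 2.2.5, without the role of each. The use of strand in counting is not given in the sources read, so overlapping and antisense genes are uncertain. Per the file headers, the authors deposited expected counts, TPM and FPKM values for 19266 Entrez genes. The deposited expected counts are estimates, 70.0% to 70.4% of them within 1e-06 of a whole number, and were rounded. Symbols came from RefSeq (GRCh38.p14), which matched 19223 identifiers.

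In R 4.3.3 with edgeR 4.0.16, filterByExpr kept 13580 genes, TMM set the scaling, and 1 quasi-likelihood model with a term for group alone was fitted to the 9 libraries. The sh2 libraries thus helped estimate the spread. Calls needed a Benjamini-Hochberg adjusted p below 0.05 in 2-sided tests. The coefficient of variation was 2.33%, between the tables of a sample. The tables of a sample differed by more than sampling noise, with a chi-square per gene of 1.41 to 2.43. A floor of 3 counts is 0.187 to 0.204 CPM. Levels are mean ± SD and log2 fold changes ± SE with n = 3 libraries, where the SE is the absolute log2 change over the square root of the F statistic. For large changes this SE is too small and can lie below counting error. For CCN2 it was 0.056 against control and 0.084 for sh1 against sh2. The fit was tested on simulated data. The deposited TPM values served to compare levels between genes, and the deposited FPKM values 2 alternatives on the log2 scale with limma 3.58.1, for genes that reached a mean of 1 FPKM and with a pseudocount of 1 or 0.1, which understates the change of low genes. DESeq2 1.42.0, other scalings and filters, a replicate block and single libraries left out were the other alternatives.

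The gene lists and their members were chosen with earlier results of these data known. Named genes are the 12 largest rises and falls of at least 5 CPM whose libraries do not overlap, the 10 largest gains and losses in TPM, the 6 genes at 0 in one group with most counts in the other, key members and the 3 largest rises and falls of each list, and the 6 genes each way with the largest change against both control and sh2. NF2, MT1F, BTC, MMP9, TFF1, EGFL6, KCND2 and, among the marker genes, LGALS7, CSF1R, MS4A1, THY1 and VWF lie outside these rules and were named after their values were seen. The 8 genes described as falling more with sh1 than with sh2 were singled out in the same way. A few genes that the rules name are not reported here. Promoters were searched 250 bases before to 50 after the start.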

Additional observations from a re-analysis of the deposited data

Results flagged for a closer look

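For 4 named genes both hairpins were called against control by at least 1.5-fold, in opposite directions, and the hairpins differed in the quasi-likelihood F-test of edgeR, Benjamini-Hochberg adjusted. CD81, a tetraspanin, had log2 changes of 1.11 with sh1 and -1.03 with sh2, a difference of 2.14 (adjusted p = 7.38e-26, edgeR). FSTL1, a secreted glycoprotein, had 0.65 and -1.38, a difference of 2.03 (adjusted p = 9.1e-25, edgeR). BTG2, an antiproliferative early gene, had 0.80 and -1.0, a difference of 1.79 (adjusted p = 1.19e-20, edgeR). SEC23A, a COPII coat subunit, had 0.68 and -1.10, a difference of 1.78 (adjusted p = 9.05e-24, edgeR). The 4 genes were picked for called differences in opposite directions, so these adjusted p-values add no support. Both comparisons share the 3 control libraries. The cause of these differences was not tested.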

How the results depend on the processing

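The 9409 calls became 8421 with DESeq2, 9518 with upper quartile scaling and 9521 without a filter on low counts. On log2(FPKM + 1) with limma the calls at 2-fold or more fell from 1242 to 608, with 195 higher and 413 lower, and on log2(FPKM + 0.1) the higher ones numbered 324. These fits add a pseudocount and leave out genes below a mean of 1 FPKM. Leaving out 1 library gave 9003 to 9115 calls, with 4485 to 4585 higher and 4500 to 4536 lower. At 2-fold or more it gave 1275 to 1306, with 551 to 586 higher and 708 to 743 lower, and 8983 to 9210 calls against sh2. With each sample's tables summed, 1231 genes passed 2-fold, with no test. File numbers did not pair the libraries (correlations of same-numbered libraries -0.0729, -0.0712 and 0.0274), and a replicate block gave 9431 calls, 1244 at 2-fold or more, and 9501 against sh2.

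No gene called in the report changed sign under any alternative run. Of the genes not called, the log2 change turned sign with upper quartile scaling for AHR (0.036), AHRR (0.040) and MUC1 (0.023). Without single libraries it ranged over both signs for AHR (-0.023 to 0.015), AHRR (-0.067 to 0.030), MUC1 (-0.055 to 0.0061) and KLF4 (-0.012 to 0.047). Upper quartile scaling also ended the calls of DNAJC3 (-0.11) and TXNDC5 (-0.076) and called ITGB1 (0.077), MX1 (0.094) and SERPINB5 (0.10) higher. DESeq2 ended the calls of FAP (-0.38), KRT19 (0.34), LYZ (0.37) and PTPRC (0.63). List medians moved as well, and 13 of 79 ranged over both signs across the alternatives. The keratin median ranged from -1.02 to -0.572 and that of the EGF list from -0.778 to -0.0347.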
